A study of Mus musculus with 18 samples.

Results

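The integrated stress response and the synthesis of serine were followed in mouse stem cells through 10 genes: Atf4, Atf5, Ddit3, Chac1, Trib3, Asns, Phgdh, Psat1, Psph and Shmt2. They were chosen by symbol, with earlier results of these data known. All 10 were found among the 25239 symbols of the deposited table and among the 17545 that passed the filter on low counts. RNA from 18 libraries, 3 in each of 6 groups, traced the passage from primed to naive pluripotency. EpiSC (epiblast stem cells, labelled primed) stood for day 0. Cells on the way, called transient by the labels, were taken on day 3 (D3), day 5 (D5) and day 8 (D8). The rES were labelled naive stem cells, and ESC were labelled as mouse embryonic stem cells. The labels give no genotype, strain, medium or added factor for any group, and do not state that the replicates came from separate cultures. The p-values rest on the spread of libraries within groups, estimated over all 6 groups together and with the help of other genes. They do not measure the spread of only the groups compared, and this spread may be technical. In bulk RNA, fewer cells of a type and less RNA per cell cannot be told apart.

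In the integrated stress response, kinases that sense amino acid shortage, misfolded protein, haem lack or double-stranded RNA phosphorylate the initiation factor eIF2. General translation then falls, while the mRNA of Atf4 is translated more because of short reading frames ahead of its coding sequence. ATF4 protein pairs with C/EBP factors and switches on genes for amino acid synthesis, transport and tRNA charging. It also switches on Ddit3 and Trib3, which act in prolonged stress. Phgdh, Psat1 and Psph encode the successive enzymes that turn a glycolytic intermediate into serine, and Shmt2 encodes the mitochondrial enzyme that splits serine into glycine and a folate-bound carbon. RNA levels do not report translation, and no protein was measured.

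The DNA element through which ATF4 and C/EBP factors act on many of these genes reads TGATGNAA, and the sites found are shown because members that hold it moved in different ways. It was searched on both strands in 300-base windows, 250 bases before and 50 from the transcription start, that RefSeq gives on GRCm38.p6. The windows of 3 of 10 members held a match, those of Chac1, Trib3 and Asns, against 3.97% of 32851 windows of all genes. The shorter C/EBP-type sequence TGCAAT was found for Trib3 and Psat1, against 8.4% of windows. Members were counted by gene, with a match in any window of the gene, and the shares over all genes by single window. A site can count under both where the letters overlap, and none of those below does. Each line gives 10 bases on either side, in the direction of the gene, with the match in capitals, which reads as the reverse complement for Chac1 and for the first Trib3 site. By the RefSeq starts, the matches begin 193 bases before the start in Chac1, 23 before in Asns and 15 bases into the transcribed part in Trib3. For the C/EBP-type sequence they begin 30 before in Trib3 and 133 before in Psat1. In the GENCODE vM21 annotation, the Asns and Psat1 genes start further upstream, at chr6:7693254 and chr19:15947337, so both matches lie inside the gene span. Trib3 starts further downstream there, at chr2:152344032, so both its sites lie ahead of the start.
Chac1 at chr2:119351039-119351066, plus strand: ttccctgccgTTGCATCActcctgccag
Asns at chr6:7693215-7693242, minus strand: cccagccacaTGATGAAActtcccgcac
Trib3 at chr2:152344029-152344056, minus strand: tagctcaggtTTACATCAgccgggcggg
Trib3 at chr2:152344075-152344100, minus strand: tcacagatggTGCAATcccgggccgc
Psat1 at chr19:15925177-15925202, minus strand: gggtggctggTGCAATcccctgctct

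The promoter of Chac1 is printed at length because this gene changed the most of the 10, from position -250 to -14 ahead of its RefSeq start, at chr2:119350992-119351228 on the plus strand of GRCm38.p6, with the match again in capitals. A match is a run of letters, and no binding was measured in these samples.
Chac1 promoter: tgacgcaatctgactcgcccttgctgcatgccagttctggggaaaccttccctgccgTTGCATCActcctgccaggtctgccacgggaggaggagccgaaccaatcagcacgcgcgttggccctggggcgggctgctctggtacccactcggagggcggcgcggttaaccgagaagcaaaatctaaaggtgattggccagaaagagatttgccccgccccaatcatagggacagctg

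Libraries held 58362230 to 101607352 counts, and levels are given as CPM, counts scaled to a common library size after adjustment of each total by its TMM factor. The 8 naive markers checked summed to 59.0 to 65.5 CPM in EpiSC (Zfp42 at 0) and to 4399 to 4546 CPM in rES and ESC, and the 6 primed markers to 1946 to 2125 CPM in EpiSC and 152 to 241 CPM in rES and ESC. Pou5f1 and Sox2, expressed in both states, summed to 441 to 613 CPM in EpiSC and 578 to 915 CPM in rES and ESC, but to 8.83 to 48.1 CPM at D3 and D5. The libraries of the intermediate days also carried markers of other cells. The 7 trophoblast markers summed to 129 to 136 CPM in EpiSC (Cdx2 at 0), 1621 to 2207 CPM at D3, D5 and D8, and 7.49 to 11.8 CPM in rES and ESC. Nearly all of the EpiSC sum was Krt18 (129.6 CPM), and the next highest of these markers there was Gata3 at 1.29 CPM. Krt18 and Krt7 held most of the trophoblast sum at D5 (1522 and 407 CPM) and D8 (1391 and 403 CPM), while Hand1 stood at 458 CPM at D3 and at 39.7 and 12.1 CPM at D5 and D8, Esx1 at 321, 135 and 87.8 CPM and Cdx2 at 30.8, 1.77 and 1.65 CPM. The 8 fibroblast markers summed to 31.3 to 47.4 CPM in EpiSC, 501 to 1685 CPM over the intermediate days, 17.4 to 19.4 CPM in rES (Dcn at 0) and 132 to 175 CPM in ESC. They did not rise together. Col1a1 held most of the fibroblast sum at D3 (404 CPM), beside Postn, Dcn and Lum at 0.887, 1.35 and 0.725 CPM. Postn, Dcn and Lum stood at 163, 56.4 and 109 CPM at D8. Thy1 was 10.55 CPM in EpiSC, 38.3 CPM at D3 and only 2.34 and 1.32 CPM at D5 and D8. Pdgfrb fell from 56.7 CPM at D3 to 10.9 CPM at D8. Smaller sums were seen for 6 primitive endoderm markers (1.89 to 3.47 CPM in EpiSC, 44.9 to 71.6 CPM at the intermediate days), for 5 blood markers (at most 0.444 CPM in EpiSC, 51.8 to 282 CPM at D5 and D8) and for 4 neural progenitor markers (328 to 417 CPM in EpiSC, 14.3 to 69.9 CPM at the intermediate days). Pdgfra stood at 23.2, 26.5 and 26.5 CPM at D3, D5 and D8, beside Sox7 at 1.10, 0.0888 and 0.153 CPM. Hba-x and Hba-a1 held most of the blood sum at D5 (105 and 102 CPM) and D8 (27.1 and 43.8 CPM). Ptprc went the other way, from 0.207 CPM in EpiSC to 0.0920 and 0.0238 CPM at D5 and D8. Nes held most of the neural sum in EpiSC (349 CPM), beside Sox1, Pax6 and Neurog2 at 11.6, 1.61 and 0.0214 CPM. Every difference between EpiSC or rES and the intermediate days below goes along with differences in the marker sums, and their part in it was not tested.

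Atf4, the factor at the head of the response, was highest in EpiSC and was lower in every other group. In EpiSC replicates 1 to 3 it stood at 556, 565 and 620 CPM. At D3 it stood at 129, 133 and 146 CPM, 4.26-fold lower (log2 difference -2.09 ± 0.13, approximate standard error, adjusted p = 1.08e-10 in edgeR's quasi-likelihood test with Benjamini-Hochberg adjustment over all genes). All 9 libraries of D3, D5 and D8 lay between 122 and 185 CPM, so the level reached at day 3 was not followed by a further called change: D5 against D3 differed by 0.08 (adjusted p = 0.628) and D8 against D5 by 0.03 (adjusted p = 0.871) on the log2 scale. Of the intermediate days, D8 had the widest spread, at 122, 133 and 185 CPM. Atf4 was 184, 192 and 201 CPM in rES and 228, 217 and 191 CPM in ESC. These naive groups overlapped with each other, lay under EpiSC by 3.02-fold and 2.74-fold (adjusted p = 2.72e-09 and 1.03e-08), and did not differ by the test (log2 difference of rES from ESC -0.14 ± 0.12, adjusted p = 0.420). The rise from D8 to rES was called (log2 0.39, adjusted p = 0.00884), although 1 D8 library lay inside the range of rES, and without D8 replicate 1 it was 0.26 (adjusted p = 0.0732). In the order of levels EpiSC stood apart, and each of ESC, rES, D8, D5 and D3 overlapped with the next.

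**Figure D1:**
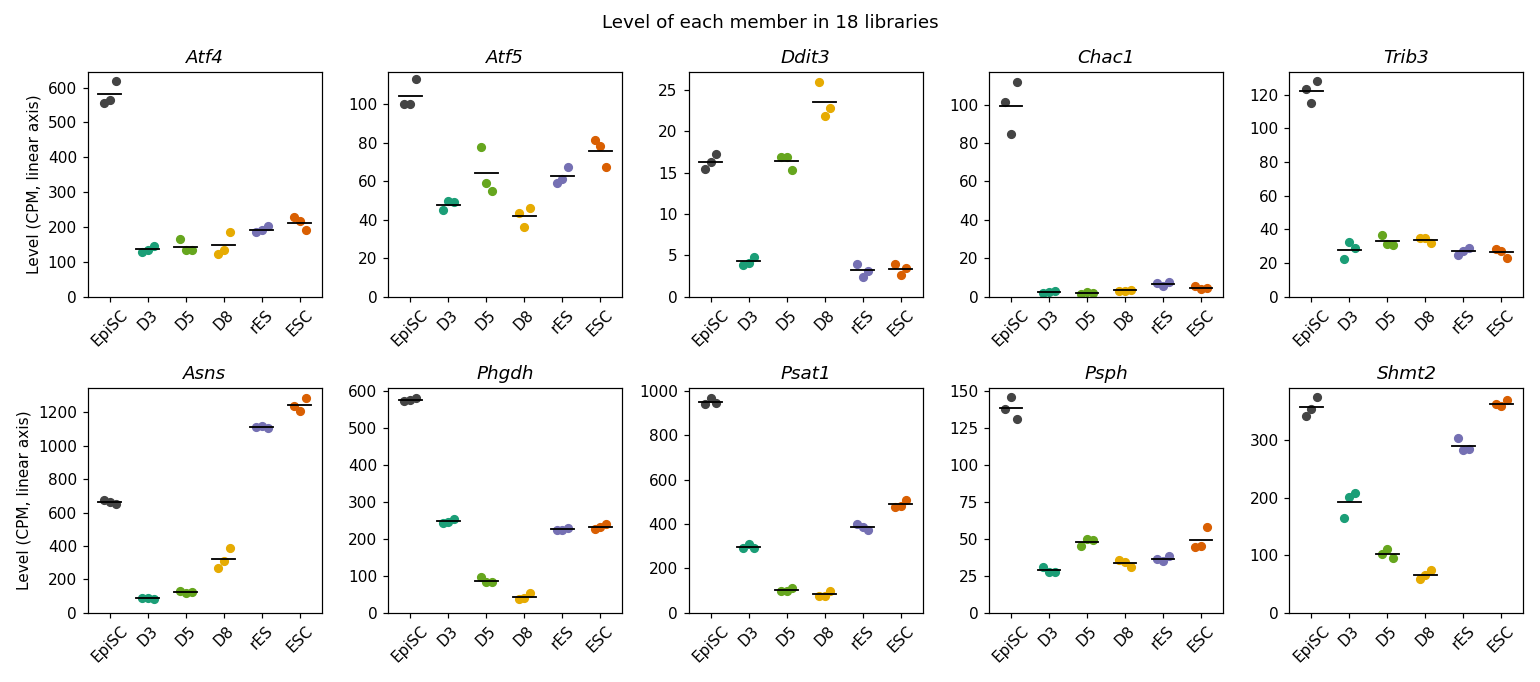
Level of each of the 10 genes in CPM (linear y axis from 0, with its own scale for each gene) by group, with 1 point for each of the 3 libraries and a line at the group mean. EpiSC libraries are the highest for Atf4, Atf5, Chac1, Trib3, Phgdh, Psat1 and Psph, D8 libraries for Ddit3 and ESC and rES libraries for Asns.

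Atf5, a relative of Atf4 linked to stress of mitochondria, moved the least of the 10, 2.50-fold between its highest and lowest group. It stood at 100.2, 99.97 and 113 CPM in EpiSC and at 44.9, 49.5 and 49.0 CPM at D3 (log2 -1.13, adjusted p = 1.85e-07). It was then 77.7, 59.0 and 55.1 CPM at D5, higher than at D3 by 0.42 on the log2 scale (adjusted p = 0.00555), and 43.5, 35.9 and 46.0 CPM at D8. The D5 rise rested in part on replicate 1: without it the log2 difference was 0.26 (adjusted p = 0.0564). In rES and ESC it lay at 59.0 to 67.2 and 67.4 to 81.2 CPM, below all EpiSC libraries, with log2 differences of -0.74 and -0.46 (adjusted p = 2.38e-05 and 0.00219).

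Ddit3, which encodes CHOP, the factor tied to prolonged stress and cell death, followed a course of its own. It stood at 15.4, 16.3 and 17.3 CPM in EpiSC and at 3.85, 4.12 and 4.80 CPM at D3 (log2 -1.94 ± 0.17, adjusted p = 1.88e-08). At D5 it was back at 16.9, 16.9 and 15.3 CPM, which overlapped with EpiSC, and at D8 it was 26.0, 21.9 and 22.9 CPM, above every other library of the series. The step from D3 to D5 was 3.84-fold (log2 1.94, adjusted p = 2.71e-08), and D8 exceeded EpiSC by 1.44-fold (log2 0.53 ± 0.16, adjusted p = 0.00737). D8 also exceeded D5 (log2 0.53, adjusted p = 0.0135), a call that was lost without D8 replicate 1 (0.45, adjusted p = 0.0543) or D5 replicate 3 (0.48, adjusted p = 0.0535). In rES it was 3.99, 2.39 and 3.12 CPM, 7.44-fold below D8 (adjusted p = 8.07e-11), and in ESC 3.89, 2.57 and 3.41 CPM. D3, ESC and rES formed the low end and overlapped. Ddit3 was the member with the fewest counts per kilobase of transcript in EpiSC, 9.53 CPM per kb, and its smallest count in any library was 145. Low counts in the table bunch at some values, so the number of reads behind a count is not known and may be smaller. Exons of Ddit3 and of Mars1 on the opposite strand share 68 bases, and Mars1, the methionyl-tRNA synthetase, stood at 398 CPM in EpiSC and 180, 133 and 131 CPM at D3, D5 and D8. If strand was not used in counting, reads of the shared bases cannot be told apart, and their part in the level of Ddit3 was not tested.

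Chac1, which encodes an enzyme that breaks down glutathione, had the widest range of the members, 57.2-fold between its highest and lowest group. It stood at 101.2, 84.5 and 112 CPM in EpiSC. At D3 it was 1.89, 2.22 and 2.94 CPM, 42.0-fold lower (log2 -5.39 ± 0.22, adjusted p = 6.15e-13). At D5 it was 1.27, 2.19 and 1.74 CPM, which overlapped with D3 and was 57.2-fold below EpiSC (adjusted p = 1.38e-13). No library outside EpiSC held more than 7.43 CPM, so EpiSC stood far apart. Counts of Chac1 were 116 to 206 at D3, 79 to 134 at D5 and 170 to 307 at D8. They may stand for fewer reads, as low counts in the table bunch at some values. Chac1 was 2.77, 3.13 and 3.58 CPM at D8, higher than at D5 by 0.87 on the log2 scale (adjusted p = 0.00264). In rES it was 6.88, 5.56 and 7.43 CPM, above D8 by 1.07 (adjusted p = 0.000101) and still 14.95-fold below EpiSC. ESC held 5.72, 3.75 and 4.49 CPM, 21.3-fold below EpiSC. The difference of rES from ESC was not called (log2 0.51, adjusted p = 0.0526), but it was called in 6 of the alternatives run, with adjusted p down to 0.0226 in DESeq2.

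Trib3, a pseudokinase that ATF4 and CHOP switch on and that dampens them, fell at D3 and was low in all later groups and in ESC. It stood at 123.5, 114.9 and 128.2 CPM in EpiSC and at 22.5, 32.4 and 28.8 CPM at D3 (log2 -2.13, adjusted p = 3.75e-11). All 15 libraries outside EpiSC lay between 22.5 and 36.8 CPM. D8 exceeded rES (log2 difference of rES from D8 -0.33, adjusted p = 0.0166), a call lost without rES replicate 1 (-0.27, adjusted p = 0.0791). The difference of rES from ESC was 0.03 ± 0.12 on the log2 scale (adjusted p = 0.882).

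Asns, which makes asparagine from aspartate and glutamine, also fell at D3, but it was the only member that ended higher in both naive groups than in EpiSC. It stood at 675, 664 and 651 CPM in EpiSC and at 89.9, 89.1 and 84.6 CPM at D3, 7.54-fold lower (log2 -2.92 ± 0.09, adjusted p = 2.33e-14). It then rose at each step. D5 libraries held 128, 120.4 and 123 CPM (log2 0.50 over D3, adjusted p = 8.39e-05). D8 libraries held 270.1, 312 and 385 CPM (log2 1.38 over D5, adjusted p = 1.22e-09). No library of D8 reached EpiSC, and the D8 libraries differed among themselves more than those of other groups. The values were 1112, 1116 and 1108 CPM in rES and 1240.1, 1209 and 1285 CPM in ESC. Both naive groups lay above all EpiSC libraries, by 1.68-fold in rES (log2 0.75 ± 0.09, adjusted p = 4.56e-07) and 1.88-fold in ESC (adjusted p = 3.87e-08). No neighbouring groups overlapped in the order ESC, rES, EpiSC, D8, D5, D3, though the difference of rES from ESC was not called (log2 -0.16, adjusted p = 0.158). Per kilobase of transcript, Asns held 242.5 CPM per kb in EpiSC, beside 246 for Atf4, and 455 in ESC.

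**Figure D2:**
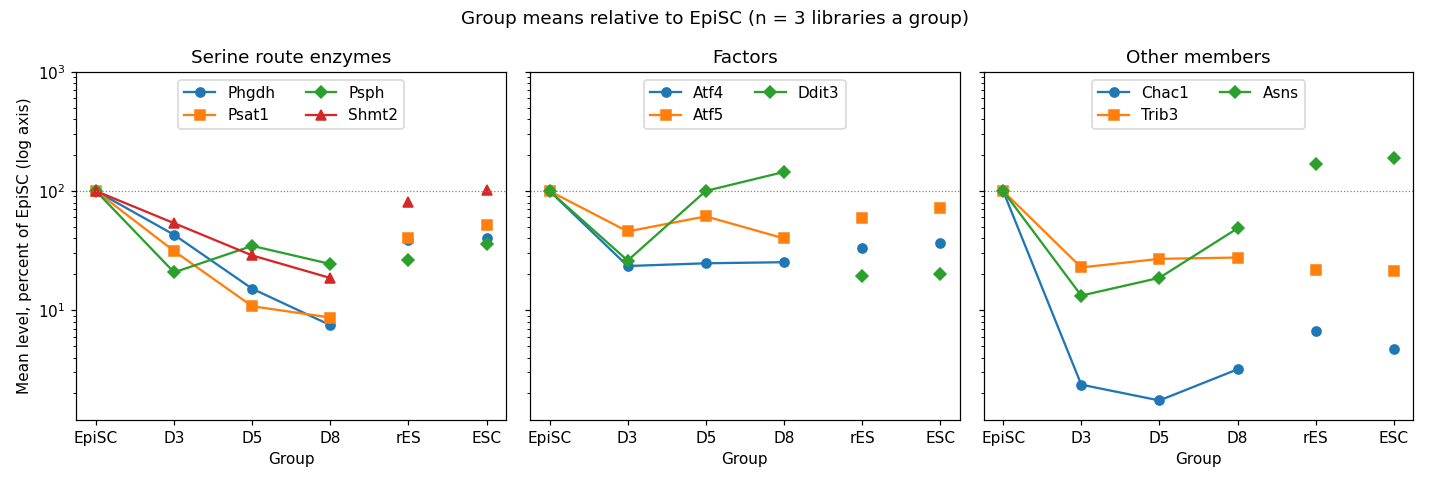
Mean level of each gene in each group (n = 3 libraries) as a percentage of its EpiSC mean, on a log axis, in 3 panels for the serine route, the factors and the other members. Lines join EpiSC, D3, D5 and D8 only, and the dotted line is the EpiSC level, which Ddit3 passes at D8 and Asns passes in rES and ESC.

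Phgdh, the first enzyme of the serine route, fell in 3 steps and came back in part. It stood at 573, 575 and 579.7 CPM in EpiSC and at 243, 246 and 253 CPM at D3 (log2 -1.22, adjusted p = 4.95e-09). D5 libraries held 96.0, 83.2 and 82.4 CPM (log2 -1.50 against D3, adjusted p = 5.89e-10), and D8 libraries 36.8, 39.4 and 53.2 CPM (log2 -1.02 against D5, adjusted p = 2.02e-07). None of these groups overlapped, and D8 was 13.4-fold below EpiSC (adjusted p = 2.09e-15). In rES it was 223, 224 and 229 CPM, 5.22-fold above D8 (log2 2.38, adjusted p = 5.22e-13), and in ESC 227, 233 and 239 CPM. The naive groups overlapped with each other and stayed 2.56-fold and 2.47-fold under EpiSC.

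Psat1, the aminotransferase that follows, took the same order of days. It stood at 941, 967 and 944 CPM in EpiSC, at 294, 310.2 and 289.9 CPM at D3 and at 98.3, 99.5 and 109.9 CPM at D5. At D8 it was 74.0, 76.8 and 96.6 CPM, 11.5-fold below EpiSC (log2 -3.53 ± 0.09, adjusted p = 3.64e-16). Each step down was called, the smallest being D8 against D5 (log2 -0.31, adjusted p = 0.00377). It was 398, 385 and 372 CPM in rES and 475, 482 and 509.97 CPM in ESC. The 6 groups did not overlap anywhere, and rES lay below ESC (log2 -0.34, adjusted p = 0.00296).

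Psph, the phosphatase of the last step, was an exception among the serine enzymes in its timing. It stood at 138, 146 and 131 CPM in EpiSC and fell at D3 to 30.7, 27.7 and 27.9 CPM, 4.81-fold (adjusted p = 1.25e-12), the lowest of its groups. D5 libraries held 45.03, 49.7 and 49.3 CPM, higher than D3 (log2 0.74, adjusted p = 3.12e-06), where Phgdh and Psat1 fell between the same days. It was 35.8, 34.5 and 31.2 CPM at D8 and 36.4, 34.8 and 38.2 CPM in rES, which overlapped (log2 difference of rES from D8 0.11 ± 0.10, adjusted p = 0.325), and 44.5, 45.1 and 58.3 CPM in ESC. The difference of rES from ESC was -0.44 on the log2 scale (adjusted p = 0.0019). Exons of Psph share 452 bases with an entry named Cct6a on the opposite strand, which the annotation types as a processed transcript, not as protein-coding. The symbol Cct6a, which names a chaperonin subunit, stood at 781, 520, 410 and 365 CPM in EpiSC, D3, D5 and D8. How much of this level comes from the overlapping entry is not known. Here too, reads of the shared bases cannot be told apart without strand, and their part was not tested.

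Shmt2, the mitochondrial enzyme that uses serine, fell at each step to D8 and overlapped between EpiSC and ESC. It stood at 341, 354 and 374 CPM in EpiSC and at 165, 201 and 209 CPM at D3 (log2 -0.90, adjusted p = 1.33e-07). D5 libraries held 101.4, 111.5 and 95.2 CPM, and D8 libraries 58.5, 65.7 and 75.1 CPM, 5.37-fold below EpiSC (adjusted p = 1.42e-13). None of these 4 groups overlapped. In rES it was 304, 282 and 285 CPM, 4.37-fold above D8 (adjusted p = 1.00e-12), and in ESC 362, 359 and 369 CPM. ESC overlapped with EpiSC (log2 0.03 ± 0.09, adjusted p = 0.833), though with these groups fitted alone ESC was called higher (log2 0.16, adjusted p = 0.0150). The lower level of rES than EpiSC was called (log2 -0.30, adjusted p = 0.00853) but was -0.15 (adjusted p = 0.139) with DESeq2's size factors in place of edgeR's, and rES lay below ESC (log2 -0.32, adjusted p = 0.0117).

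Added up within each library, Phgdh, Psat1 and Psph gave 1665 ± 19.95 CPM in EpiSC (SD, n = 3). The sum was 574 ± 8.67 CPM at D3, 238 ± 4.73 CPM at D5 and 159 ± 18.8 CPM at D8, or 34.5%, 14.3% and 9.57% of EpiSC. It was 646 ± 9.31 CPM in rES and 771 ± 32.4 CPM in ESC, 38.8% and 46.3% of EpiSC. At D8, replicate 3 had the highest Atf4, Atf5, Chac1, Asns, Phgdh, Psat1 and Shmt2 and the lowest Psph and Trib3, and it had the largest sum of naive markers (960, 1167 and 1818 CPM in replicates 1 to 3) and the smallest of trophoblast markers (2163, 2019 and 1621 CPM). Their part in the spread at D8 was not tested.

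Counted by comparison, the members were lower than in EpiSC at nearly every stage. At D3 all 10 were called lower, where 64.2% of all genes were called in either direction, 30.2% lower and 34.1% higher. The median log2 difference of the members was -2.01, and that of all genes 0.00. At D5 9 of 10 were called lower, all but Ddit3, where 72% of all genes were called, 34.3% lower and 37.7% higher. At D8 9 were called lower and Ddit3 higher, where 76.8% of all genes were called, 34.5% lower and 42.4% higher. In rES 9 were lower and Asns was higher, with 69.4% of all genes called (37.5% lower, 31.9% higher). In ESC 8 were lower, Asns was higher and Shmt2 was not called, with 67.3% of all genes called (36.1% lower, 31.2% higher). The members' medians in these last 4 comparisons were -1.95, -2.01, -1.47 and -1.38, against 0.02, 0.19, -0.09 and -0.07 for all genes. These 5 comparisons share the EpiSC libraries, so they are not independent of each other. The members were chosen with earlier results of these data known, so the shares over all genes describe and do not test. The 3 libraries of a group did not overlap with those of EpiSC for 10 members at D3, 9 at D5, 10 at D8, 10 in rES and 9 in ESC, where 68.1%, 75%, 79%, 75.2% and 72.2% of all genes did not overlap either.

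**Figure D3:**
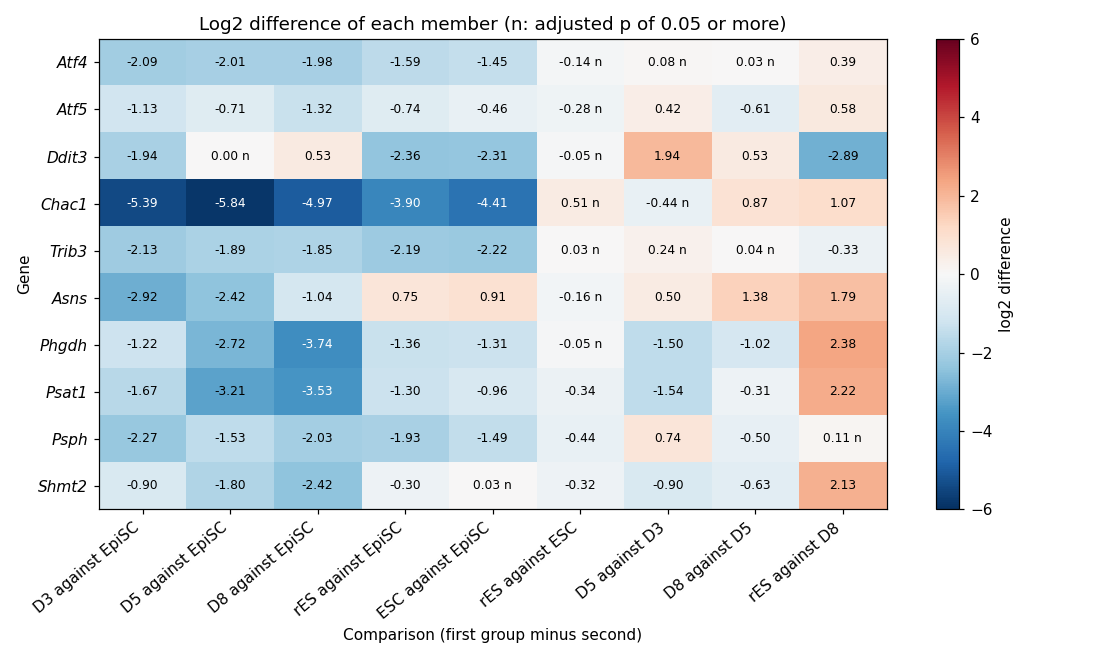
Log2 difference of each of the 10 genes (rows) in the 9 comparisons (columns, first group minus second), as colour from blue (lower) to red (higher) with the value printed in each cell and n for values that were not called. Against EpiSC the cells are blue apart from Ddit3 at D5 and D8, Asns in rES and ESC and Shmt2 in ESC, and in rES against D8 Phgdh, Psat1, Shmt2 and Asns are the reddest.

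Between successive stages the members parted. From D3 to D5 4 rose (Ddit3, Psph, Asns and Atf5), 3 fell (Phgdh, Psat1 and Shmt2) and 3 were not called, with 59.5% of all genes called (29.9% higher, 29.6% lower). The libraries of these days did not overlap for 7 members and for 64.6% of all genes. From D5 to D8 3 rose (Asns, Chac1 and Ddit3), 5 fell (Phgdh, Shmt2, Atf5, Psph and Psat1) and 2 were not called, with 47.1% of all genes called (25.1% higher, 22% lower). The libraries did not overlap for 8 members and for 55.2% of all genes. From D8 to rES 7 rose, led by Phgdh, Psat1, Shmt2 and Asns at 2.38, 2.22, 2.13 and 1.79 on the log2 scale, while Ddit3 (-2.89) and Trib3 (-0.33) fell and Psph was not called, with 71.1% of all genes called (32.7% higher, 38.4% lower). Here too 8 members did not overlap, and 76.9% of all genes. Between rES and ESC, 3 members were called, Psat1, Psph and Shmt2, all lower in rES, with 33.5% of all genes called (17.9% lower, 15.6% higher). The libraries of rES and ESC did not overlap for 5 members and for 53.7% of all genes. The other 7 differed by -0.28 (Atf5) to 0.51 (Chac1) on the log2 scale. With only these groups in the fit, 6 were called, Atf5, Asns and Chac1 in addition.

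The count of each gene divided by the count of Atf4 in the same library shows where a member moved apart from Atf4. It needs no scaling between libraries. For Trib3 this ratio was 0.211 in EpiSC, 0.205 at D3, 0.230 at D5 and 0.240 at D8, and 0.139 and 0.123 in rES and ESC. For Psph it lay between 0.189 and 0.339 in all groups. The ratio of Chac1 fell from 0.170 in EpiSC to 0.0171 at D3 and 0.0124 at D5, and was 0.0344 in rES and 0.0220 in ESC. That of Ddit3 rose from 0.0281 in EpiSC to 0.115 at D5 and 0.167 at D8, and was 0.0165 in rES. Asns went from 1.15 in EpiSC and 0.648 at D3 to 2.21 at D8, 5.78 in rES and 5.91 in ESC. Psat1 stood at 1.64 in EpiSC and 2.20 at D3, at 0.723 and 0.569 at D5 and D8, and at 2.005 and 2.33 in rES and ESC. Chac1, Asns and Trib3, whose promoter windows hold the element printed above, thus took 3 different courses relative to Atf4.

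**Figure D4:**
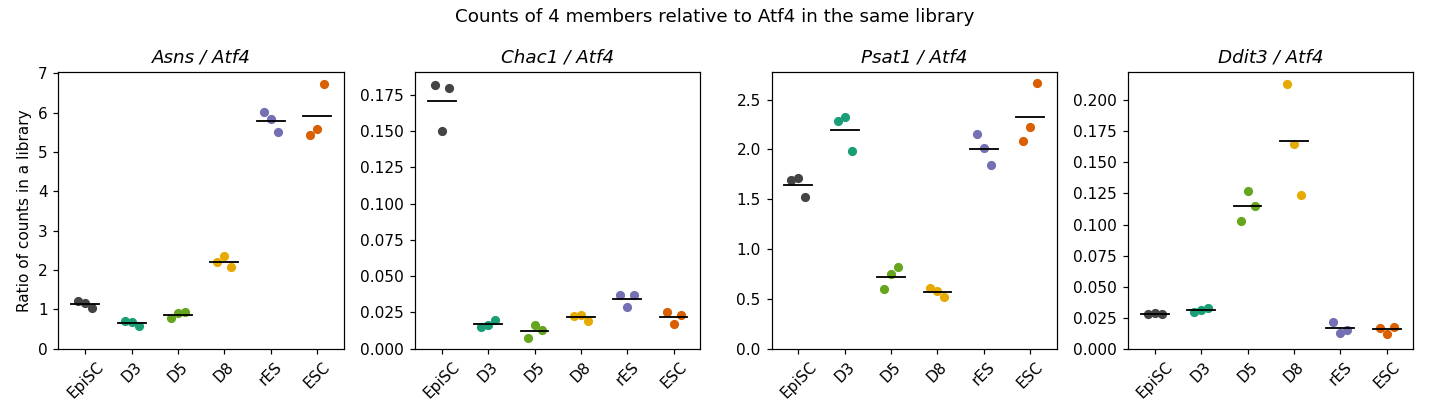
Counts of Asns, Chac1, Psat1 and Ddit3 divided by the count of Atf4 in the same library (linear y axis from 0, with its own scale for each gene) by group, with 1 point per library and a line at the group mean. Chac1 is high in EpiSC only, Ddit3 at D5 and D8, and Asns in rES and ESC, while Psat1 is low at D5 and D8.

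Every log2 difference given below for a gene that is no member was called in edgeR. The counts of called genes in the lists below stand beside these shares over all genes tested: 34.1% higher and 30.2% lower at D3, 37.7% and 34.3% at D5, 42.4% and 34.5% at D8, 31.9% and 37.5% in rES and 31.2% and 36.1% in ESC, each against EpiSC. The median log2 differences of all genes in these comparisons were 0.00, 0.02, 0.19, -0.09 and -0.07. The lists were also chosen with earlier results of these data known, and no list was tested. First, 18 genes for the eIF2 kinases, eIF2, its exchange factor and the control of these were read. Of these, 6 were higher and 10 lower at D3, 9 and 8 at D5, 8 and 6 at D8, 7 and 7 in rES and 10 and 2 in ESC. Eif2ak2, the kinase PKR that senses double-stranded RNA, stood at 22.0 ± 2.01 CPM in EpiSC, 138 ± 11.03 CPM at D5 (log2 2.64) and 107 ± 8.06 CPM at D8 (log2 2.27). Ppp1r15a, known as GADD34, which directs the phosphatase that restores eIF2, stood at 28.7 ± 0.673 CPM in EpiSC and 106 ± 5.36 CPM at D8 (log2 1.89). Eif2ak4, the kinase GCN2 that senses uncharged tRNA, was lower at D8 (27.9 ± 3.07 CPM against 54.9 ± 1.32 CPM). Eif2s2, a subunit of eIF2, was 635 ± 65.3 CPM in EpiSC, 304 ± 27.2 CPM at D3 and 329 ± 30.9 CPM at D5. It stood at 711 ± 43.9 CPM at D8, 1352 ± 28.1 CPM in rES and 1689 ± 111 CPM in ESC.

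Most of 27 partners and other known targets of ATF4 were lower than in EpiSC. The counts of higher and lower genes were 5 and 17 at D3, 5 and 18 at D5, 7 and 18 at D8, 4 and 21 in rES and 3 and 19 in ESC, with medians of -1.34, -1.14, -0.71, -0.86 and -0.72 on the log2 scale. Cth, which makes cysteine, stood at 145 ± 3.45 CPM in EpiSC, 5.09 ± 0.368 CPM at D3 (log2 -4.83), 3.79 ± 1.31 CPM at D5 and 56.1 ± 14.4 CPM at D8 (log2 3.89 over D5). Gpt2, an alanine aminotransferase, was 159 ± 7.09 CPM in EpiSC and 12.9 ± 2.11 CPM at D3, and Pycr1, which makes proline, went from 81.6 ± 1.59 to 7.38 ± 0.229 CPM. Stc2, a secreted glycoprotein, fell the furthest, from 44.5 ± 6.96 CPM in EpiSC to 0.578 ± 0.234 CPM at D5 (log2 -6.26). Others were higher than in EpiSC at D8, as Ddit3 was. Nupr1, a stress-induced nuclear protein, stood at 1.98 ± 0.560 CPM in EpiSC and 35.0 ± 5.60 CPM at D8 (log2 4.14). Vldlr, a lipoprotein receptor, was 80.3 ± 2.66 CPM in EpiSC, 9.69 ± 0.895 CPM at D3, 48.2 ± 3.41 CPM at D5, 199 ± 34.8 CPM at D8 and 3.37 ± 0.756 CPM in rES. Atf3, another stress-induced factor, was 37.5 ± 1.85 CPM in EpiSC, 31.3 ± 2.10 CPM at D3, 55.3 ± 5.06 CPM at D5, 97.0 ± 17.99 CPM at D8 and 1.86 ± 0.656 CPM in rES (log2 -5.71 against D8). Cebpb, a C/EBP partner, was 46.8 ± 1.79 CPM in EpiSC, 171 ± 17.6 CPM at D3, 140 ± 15.3 CPM at D5, 183 ± 22.2 CPM at D8 and 6.42 ± 0.782 CPM in rES (log2 -4.83 against D8).

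Most genes for charging tRNA with amino acids, which ATF4 is known to drive, were lower than in EpiSC at every stage. Of 20 cytosolic synthetases 16 were lower and 2 higher at D3, 18 and 1 at D5 and 19 and 0 at D8, with medians of -0.91, -1.24 and -1.57. From D8 to rES all 20 were called higher, with a median of 0.89, where 32.7% of all genes were called higher. In rES 17 were still lower than in EpiSC and in ESC 13, with medians of -0.47 and -0.33. Lars, for leucine, stood at 627 ± 20.2 CPM in EpiSC, 139 ± 5.28 CPM at D8 and 255 ± 1.53 CPM in rES. Sars, for serine, was 594 ± 12.98 CPM in EpiSC and 206 ± 16.2 CPM at D3, and stayed at 225 ± 3.37 and 210 ± 2.02 CPM in rES and ESC.

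The 18 enzymes of glycine and folate metabolism next to the serine route were mostly lower in the intermediate days, with 12 lower and 0 higher at D3, 12 and 2 at D5 and 14 and 3 at D8, where 30.2%, 34.3% and 34.5% of all genes were lower. In rES 7 were lower and 6 higher, and in ESC 8 and 7. From D8 to rES 14 were called higher and 3 lower, with a median of 1.44, where 32.7% of all genes were higher, 38.4% were lower and the median was -0.09. Mthfd2, which carries on the mitochondrial step after Shmt2, stood at 297 ± 5.86 CPM in EpiSC, 74.7 ± 0.478 CPM at D3, 42.9 ± 1.55 CPM at D5, 28.1 ± 3.30 CPM at D8 and 108 ± 3.17 CPM in rES. Srr, which turns L-serine into D-serine, went the other way, from 4.29 ± 1.00 CPM in EpiSC to 46.5 ± 4.35 CPM at D5 and 133 ± 18.4 CPM at D8 (log2 4.95), and was 4.65 ± 1.34 CPM in rES. Gldc, which splits glycine, was 221 ± 5.68 CPM in EpiSC, 101.4 ± 4.08 CPM in rES and 42.8 ± 1.11 CPM in ESC.

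The other branches of the unfolded protein response were read through 18 genes of the IRE1 and ATF6 branches. Of these, 10 were higher and 3 lower at D3, 10 and 5 at D5 and 9 and 5 at D8, but 5 and 8 in rES and 4 and 8 in ESC. Their medians at D3, D5 and D8 were 0.29, 0.42 and 0.26, beside 0.00, 0.02 and 0.19 for all genes, so the D8 values lay near those of all genes. Xbp1, the factor that IRE1 activates by splicing, stood at 43.8 ± 1.87 CPM in EpiSC, 85.0 ± 0.798 CPM at D3, 120 ± 0.229 CPM at D5, 172 ± 17.0 CPM at D8 and 75.5 CPM in rES. Dnajb9, an endoplasmic reticulum chaperone, was 12.1 ± 2.03 CPM in EpiSC and 49.3 ± 7.84 CPM at D8 (log2 2.03), and Sel1l, of the degradation machinery there, 85.3 ± 6.30 and 302 ± 29.8 CPM. Herpud1, also of that machinery and a target of ATF4 as well, fell at D3 from 55.2 ± 5.15 to 18.6 ± 1.996 CPM (log2 -1.57). Of 8 mitochondrial chaperones and proteases 5 were lower at each of D3, D5 and D8, with 1, 2 and 0 higher. In rES 4 were higher and 2 lower, and Hspd1, the chaperone HSP60, stood at 860 ± 54.9 CPM in EpiSC, 571 ± 58.7 CPM at D8 and 1394 ± 11.9 CPM in rES.

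**Figure D5:**
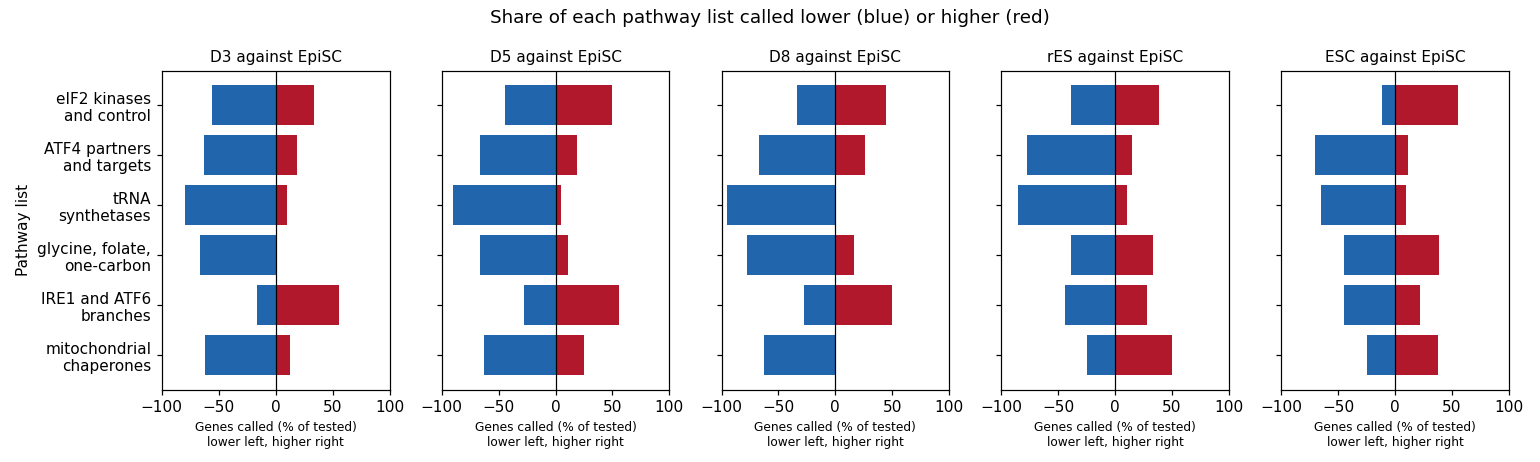
Share of the tested genes of each of 6 pathway lists that were called lower (blue, to the left of 0) or higher (red, to the right of 0) against EpiSC, in percent, with 1 panel per group. Blue is longer than red for the tRNA synthetases and for the partners and targets of ATF4 in all 5 panels, and red is longer for the IRE1 and ATF6 branches at D3, D5 and D8.

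Over the 18 libraries, which include the large step between EpiSC and the rest, the members went along with Atf4 to different degrees. Pearson's r of log2(CPM + 1) with Atf4 was 0.97 for Chac1, 0.90 for Psph, 0.87 for Trib3, 0.86 for Atf5, 0.78 for Psat1, 0.73 for Phgdh, 0.64 for Shmt2, 0.52 for Asns and 0.15 for Ddit3. Like profiles were sought among 10816 other genes with a mean of at least 5 CPM. Symbols that begin with Gm and a digit or end in Rik were left out. Among these 10816 genes the profile most like that of Atf4 was that of Otx2, a factor of the primed state (r = 0.989). Dmac1 (0.977), Mutyh, a DNA repair glycosylase (0.976), Pdzd4 (0.974) and Swap70 (0.968) followed. The profile most like the mean of the 10 members was again Otx2 (0.988), then Mutyh (0.988), Dmac1 (0.984), Swap70 (0.982) and Exosc7, a subunit of the RNA exosome (0.976). Otx2 stood at 85.2 CPM in EpiSC, 0.530 CPM at D3 and 2.99 CPM in rES, and Mutyh at 30.8, 3.73 and 7.77 CPM. These correlations describe libraries that share their groups, and carry no test.

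The genes lie apart on the mouse genome, on chromosomes 2 (Chac1 and Trib3), 3 (Phgdh), 5 (Psph), 6 (Asns), 7 (Atf5), 10 (Ddit3 and Shmt2), 15 (Atf4) and 19 (Psat1). In the GENCODE vM21 annotation of GRCm38, Chac1 spans chr2:119351229-119354381 on the plus strand, Asns chr6:7675169-7693254 on the minus strand and Atf4 chr15:80255184-80257541 on the plus strand. Besides the overlaps given above, exons of Atf5 share 82 bases with each of Nup62 and Il4i1 on the opposite strand. Nup62, of the nuclear pore, stood at 317 CPM in EpiSC and 197, 222 and 196 CPM at D3, D5 and D8, an order of days that Atf5 shares, and reads of the pair cannot be told apart there if strand was not used in counting. Exons of Shmt2 share 32 bases with Ndufa4l2, which did not pass 0.659 CPM as a mean in any group. Phgdh has a pseudogene, Phgdh-ps1, and Gm3329 lies in an intron of Psat1, with no exon overlap. For these genes too, how reads of the copies were counted is not known. The symbol Ddit3 is carried by 2 genes of the annotation.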

How the data were processed

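RNA of 18 libraries was depleted of ribosomal RNA with RNase H, made into libraries with digestion of the second strand, and sequenced as paired reads, per the labels' protocols. The submitters' processing notes name bcl2fastq, Trim Galore, HISAT2 and the mm10 build. Which program, annotation and strand setting produced the counts is not given in the sources used here. The deposited table holds 1 estimated count per gene symbol and library. The values are whole, but low ones bunch (a median library has 105.5 genes at a count of 5 and 314.5 at 4), so they were treated as estimated counts made by the authors and rounded, which changed none. A count may therefore stand for fewer reads.

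Libraries held 58362230 to 101607352 counts. Precision was taken from the spread between libraries. All 18 were fitted together, 1 coefficient per group, in edgeR 4.0.16 (R 4.3.3, limma 3.58.1) with filterByExpr, TMM factors (0.945 to 1.05) and quasi-likelihood F tests. P-values were adjusted by Benjamini-Hochberg over 17545 genes, with calls at an adjusted p of at most 0.05. Standard errors are approximate, from each log2 difference and the square root of its F. CPM use TMM library sizes. The fit was checked on simulated data at library sizes divided by 4. In ESC only, 67, 67 and 66 genes were changed by 1.5, 2 and 4-fold. In ESC against EpiSC 8.28% of calls were false, above the nominal level. Many of the smallest changes were missed, with 49.3% of those of 1.5-fold recovered. Many more genes were called in the real comparisons, so these shares do not carry over to them.

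Named genes are the 10 members, up to 4 called genes of a list by size of the log2 difference (at least 5 CPM in a group), with their levels in further groups, and the 5 genes most alike to Atf4 and to the members' mean. Mars1, Cct6a, Nup62, Ndufa4l2, Il4i1, Phgdh-ps1 and Gm3329 are named for overlap or likeness of sequence. The members and lists were chosen with earlier results of these data known. Alternatives were DESeq2 1.42.0 and its size factors, no filter on low counts, counts divided by 4, a replicate block, the compared groups fitted alone and each library left out.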

Additional observations from a re-analysis of the deposited data

How the results depend on the processing

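The members called lower or higher numbered the same as reported, or within 1.5 times, in each comparison and alternative run but 1. That exception was rES against ESC with these groups fitted alone, where 6 members were called in place of 3. The cause was not tested. The counts over all genes stayed within 1.5 times in 108 of 108 alternative values, and those of the pathway lists in 642, with 6 that moved further (4 of the mitochondrial chaperones, 1 each of the glycine and folate enzymes and the IRE1 and ATF6 branches). With DESeq2's size factors the median of all genes moved by 0.146 on the log2 scale in rES against EpiSC and by 0.111 in ESC against EpiSC, and the share of called genes that were higher in rES than in EpiSC went from 45.9% to 52.3%. Of the members' group means, 13 then moved by more than 1 SD, and the directions of called members did not change. Leaving out 1 library at a time, the members called numbered 10 to 10 at D3, D8 and rES against EpiSC, 9 to 9 at D5 and ESC against EpiSC, 3 to 4 for rES against ESC, 6 to 8 for D5 against D3, 7 to 8 for D8 against D5 and 8 to 9 for rES against D8.

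Of the alternative values of the members' log2 differences, 1046 kept direction and side of the threshold, 12 passed it newly, 7 lost it and 15 changed sign. All 15 were differences near 0 that were not called, and the cause was not tested. Ddit3 in D5 against EpiSC was -0.0052 with counts divided by 4 and -0.012 with the groups fitted alone. Leaving out 1 library at a time, its range was -0.038 to 0.050, below 0 without D5 replicate 1 or 2 or EpiSC replicate 1. The same range was -0.0043 (without EpiSC replicate 1) to 0.063 for Shmt2 in ESC against EpiSC. In rES against ESC it was -0.25 to 0.11 for Ddit3, above 0 without ESC replicate 1 or rES replicate 2, and -0.047 to 0.096 for Trib3, below 0 without replicate 3 of either group. For Atf4 it was -0.034 (without D5 replicate 1) to 0.13 in D5 against D3 and -0.17 to 0.15 in D8 against D5, below 0 without D5 replicate 2 or 3 or D8 replicate 3. For Trib3 in D8 against D5 it was -0.014 (without D5 replicate 3) to 0.12.

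The libraries share replicate numbers across groups, but nothing in the labels pairs them. The deviations of same-numbered libraries correlated at -0.282 to 0.245 over 45 pairs, 5 of them over 0.1, and 3 of 18 libraries correlated best with their own number. The fit without a block was therefore used. With the replicate block, the members called numbered 10, 9, 10, 10 and 9 for D3, D5, D8, rES and ESC against EpiSC, 3 for rES against ESC, and 7, 8 and 9 for D5 against D3, D8 against D5 and rES against D8, as without it.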
